A study of Mus musculus with 18 samples.

Results

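The proteasome is the protease that degrades ubiquitin-tagged proteins, and the genes described here are 46 mouse genes that encode its subunits, activators and assembly factors. They were chosen by gene symbol, matched to the Ensembl identifiers of the deposited tables, by a rule that uses no measured value although earlier results of these data were known, and they are 46 of the 55153 genes in the RNA-seq tables. RNA abundance (RNA-seq) and ribosome-protected fragments (Ribo-seq, which sequences the stretches of mRNA that ribosomes shield from nuclease) were measured in embryonic day 15.5 cerebral cortices of wild-type mice (Ctrl), mice with genotype *Fto* f/f, *Emx1*-cre (*F*-cKO) and mice with genotype *Mettl3* f/f, *Emx1*-cre (*M*-cKO). Each genotype had 3 libraries per assay, 18 in all, and the strain of all of them is labelled C57BL/6. *Fto* removes, and *Mettl3* writes, a methyl mark on adenosines of RNA, and the design asks how the loss of either changes RNA and its translation.

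Several features of the design bound what the libraries can show. *Emx1*-Cre is active in the cortical excitatory lineage, so that vessels, microglia, blood and interneurons in the same tissue kept both genes, and the Ctrl is labelled wild type rather than floxed or Cre-carrying. The floxed lines had a mixed background before they were bred with the Cre line, according to the methods of the study. Nothing states that same-numbered libraries of the 2 assays came from the same animal, and the Ribo-seq methods can be read as cortices of a single litter per group, so that all *P* values measure the spread between these libraries. In bulk tissue, fewer cells of a type and less RNA per cell cannot be told apart.

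The proteasome has a barrel-shaped core particle and a regulatory particle that sits on its ends. The outer alpha rings of the core gate the channel, and the inner beta rings hold the proteolytic sites, of which *Psmb5* carries the chymotrypsin-like, *Psmb6* the caspase-like and *Psmb7* the trypsin-like activity. In cells exposed to interferon, *Psmb8*, *Psmb9* and *Psmb10* replace them to form the immunoproteasome. The regulatory particle has a base, whose ATPases unfold substrates, and a lid, which removes ubiquitin. *Psmg1* to *Psmg4*, *Pomp* and *Psmd9* are chaperones that help to build these particles and are not part of the finished enzyme. In neurons and their progenitors the proteasome turns over cell cycle regulators, fate determinants and synaptic proteins. By role the 46 genes are 7 alpha subunits, 4 structural and 3 catalytic beta subunits, 3 immunoproteasome subunits, 6 base ATPases, 4 base scaffolds and ubiquitin receptors, 8 lid subunits, 5 activators and inhibitors and 6 assembly factors.

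The promoters of the genes whose RNA fell in the *M*-cKO are shown first, because 6 of these 8 genes hold the letters of one motif. RefSeq windows on GRCm38.p6, from 250 bases before to 50 after a transcript start, were at hand for 39 of the 46 genes. The letters CCAAT were searched on both strands and were found in 13 of the 39 (33.3%), against 41.1% of 27025 genes with a window. Of the 8 genes called lower in *M*-cKO RNA, 6 held the motif (75.0%), among them 5 of the 7 alpha subunits, and of the 29 tested genes with a window that were not called, 5 held it. The 1 gene with a window that was called higher, *Psme3*, held it too, and of the 9 genes called lower in *M*-cKO footprints 2 did. The share of 75.0% rests on calls that leaving out 1 library can end: without Ctrl replicate 1, *M*-cKO replicate 1 or *M*-cKO replicate 2, *Psma3*, *Psmc6*, *Psmd6* and *Psmd14* stay called among these 8, and 2 of those 4 held the motif. The motif was thus not more common in the proteasome genes than in genes at large, and these shares are a description with no test. The occurrence closest before the start is printed below for these 6 genes in the direction of the gene, with 20 flanking bases on each side and the motif in capitals (ATTGG where it lies on the opposite strand).
Psma1, chr7:114276190-114276234, minus strand: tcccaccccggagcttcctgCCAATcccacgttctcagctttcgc
Psma2, chr13:14613168-14613212, plus strand: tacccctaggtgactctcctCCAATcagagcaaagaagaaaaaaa
Psma3, chr12:70974464-70974508, plus strand: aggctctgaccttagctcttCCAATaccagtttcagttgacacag
Psma6, chr12:55384173-55384217, plus strand: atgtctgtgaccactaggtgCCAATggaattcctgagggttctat
Psma7, chr2:180042636-180042680, minus strand: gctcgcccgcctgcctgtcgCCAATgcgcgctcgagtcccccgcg
Psmd14, chr2:61711515-61711559, plus strand: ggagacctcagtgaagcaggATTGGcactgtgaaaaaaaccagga
The motif lay 98, 54, 139, 29, 196 and 159 bases before the start, in that order. Further occurrences lay 13 and 30 bases after the start in *Psma3*, 4 and 7 bases after it in *Psmd14*, and 126 and 136 bases before it in *Psma1* and *Psma6*. *Psmc6* and *Psmd6*, the remaining 2 genes called lower, had no CCAAT in their windows.

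A second motif, TGACNNNGC, the core of the antioxidant response element that the proteasome regulators *Nfe2l1* and *Nfe2l2* bind with their small Maf partners, was searched in the same way. It was found in 7 of the 39 genes (17.9%), against 14.0% of all genes with a window. Both catalytic subunits with a window held it close to the start, as did *Psme4* and *Psmd9*, and the alpha subunits held none. Those 4 occurrences are shown, with the one of *Psmc6*, the ATPase whose RNA fell most in the *M*-cKO, in capitals as before.
Psmb5, chr14:54618014-54618062, minus strand: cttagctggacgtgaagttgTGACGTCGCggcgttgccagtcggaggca
Psmb6, chr11:70525328-70525376, plus strand: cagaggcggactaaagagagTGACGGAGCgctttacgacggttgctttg
Psme4, chr11:30771748-30771796, plus strand: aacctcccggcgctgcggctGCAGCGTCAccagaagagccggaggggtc
Psmd9, chr5:123228139-123228187, plus strand: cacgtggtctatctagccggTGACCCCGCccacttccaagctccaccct
Psmc6, chr14:45329577-45329625, plus strand: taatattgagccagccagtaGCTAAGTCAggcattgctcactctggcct
They lay 47, 9, 7, 31 and 227 bases before the start, and those of *Psme4* and *Psmc6* are on the opposite strand. A match of letters is not a binding site, and no binding was measured here.

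Total counts were 18504094 to 22592406 per RNA-seq library and 10973699 to 35853227 per Ribo-seq library, so that Ribo-seq depth differed more. The shallowest library, Ribo-seq *F*-cKO replicate 2, stood apart: 10 endothelial markers summed to 98.8 RPKM there and to 6.26 to 11.9 RPKM in the other 8 Ribo-seq libraries. Cortical identity genes were present in every RNA-seq library. *Fto* was at 8.37, 10.8 and 11.2 FPKM in the Ctrl and at 2.43, 3.26 and 7.56 FPKM in the *F*-cKO, with replicate 2 the highest, and its Ribo-seq RPKM was 17.6 to 25.9 in the Ctrl and 2.11 to 4.04 in the *F*-cKO. *Mettl3* went from 5.07 to 6.43 FPKM in the Ctrl to 7.82 to 8.61 FPKM in the *M*-cKO, a called rise of 0.50 on the log2 scale against the direction of the label, and from 9.16 to 9.93 RPKM to 6.02 to 6.78 RPKM in Ribo-seq. Only some exons are deleted in either line, so that a count over the whole gene checks the labels in part, and *M*-cKO below stands for the libraries labelled so.

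In the Ctrl cortex, proteasome genes were abundant and unequal in RNA level. FPKM (RNA fragments scaled to gene length and library depth) orders genes by a level that depends on the length used as divisor. The divisor implied by counts and FPKM was 913 bases for *Psmb5*, 3475 for *Psmb7* and 4668 for *Psmb1*. Without length scaling, their Ctrl means were 111.8, 108.8 and 144.8 CPM (counts scaled to library depth). Over the 14 core genes these means ran from 85.9 (*Psmb2*) to 212 CPM (*Psmb4*). Whether the divisors match the transcripts present was not tested. *Psma6*, an alpha subunit, had the highest level at 127 ± 3.24 FPKM (SD, n = 3), followed by *Psmb5* at 123.3 ± 4.77, the structural beta subunit *Psmb4* at 108 ± 1.19, *Psmb6* at 104.8 ± 2.97 and the ATPase *Psmc5* at 93.2 ± 2.53. The lowest outside the immunoproteasome was *Psmg3*, an assembly chaperone, at 5.09 ± 0.692 FPKM. Of the 45 pairs of neighbours in this order, 19 had libraries that did not overlap, so that most neighbours were not separated beyond their spread. The 14 core subunits, which enter the particle in equal numbers, spanned 4.09-fold to 4.19-fold between the highest and the lowest FPKM within a Ctrl library. The 10 base genes spanned 6.30-fold to 6.66-fold and the 8 lid genes 4.49-fold to 4.83-fold. The order and these spans rest on the length divisor as well as on the counts.

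Ribosome footprints were spread more widely than RNA. On the RPKM scale (footprint reads scaled in the same way), *Psma6* was again highest at 408 ± 32.9 (SD, n = 3), followed by *Psmc5* at 264 ± 13.7, the structural subunit *Psmb2* at 236 ± 12.9, *Psmb4* at 214 ± 13.5 and the lid subunit *Psmd6* at 196 ± 12.7. Among neighbours in the order of RPKM, 12 of 45 pairs did not overlap. The core subunits spanned 9.93-fold to 11.3-fold within a Ctrl library and the base genes 22.4-fold to 31.3-fold, the lowest base gene being the ubiquitin receptor *Adrm1* at 10.1 ± 2.13 RPKM. The lid spanned 5.43-fold to 5.65-fold. The length divisor enters these spans, and the correlations that follow, as well. Across the 46 genes the log2 levels of both assays had a Pearson correlation of 0.928 and a Spearman correlation of 0.799, a description over genes that share the 6 Ctrl libraries and that are not independent replicates.

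**Figure D1:**
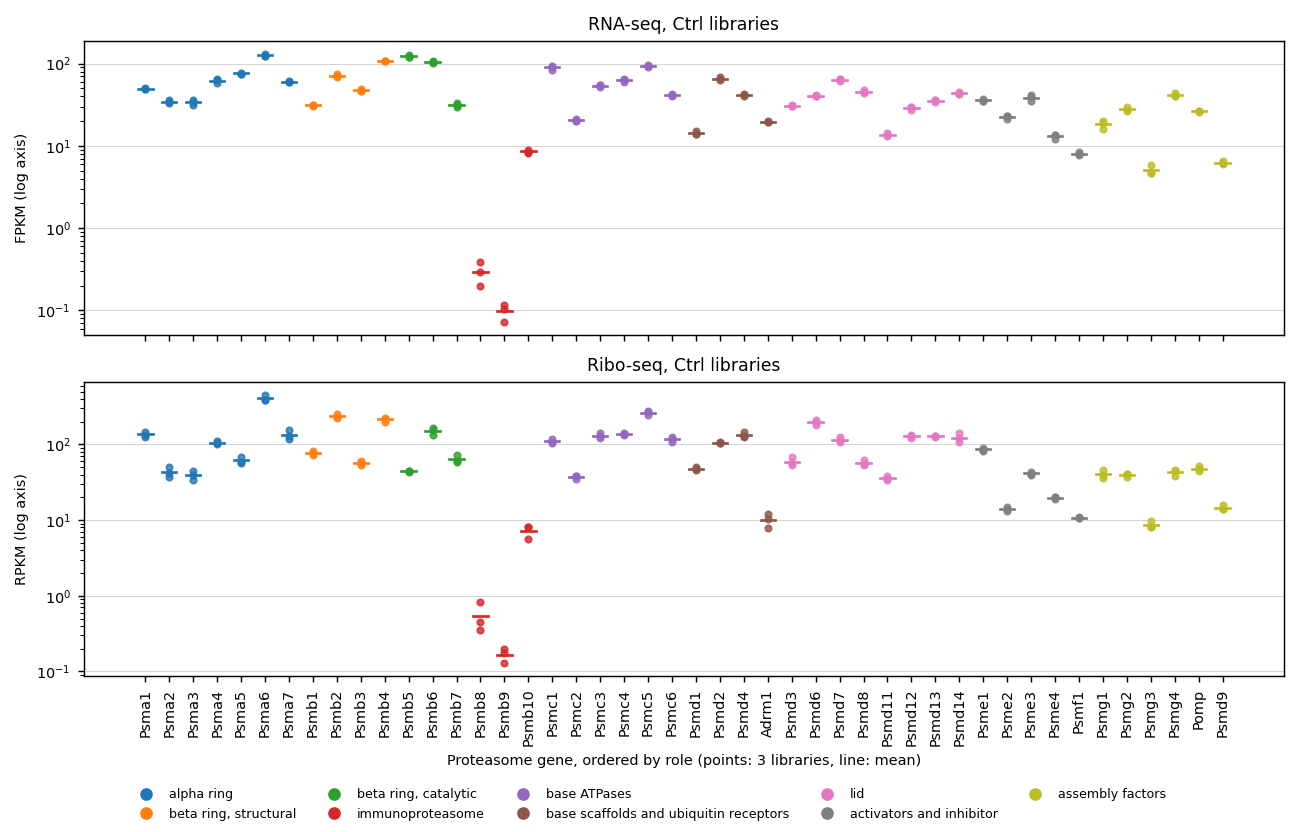
Level of each of the 46 proteasome genes in the 3 Ctrl libraries, as RNA-seq FPKM and Ribo-seq RPKM on a log axis, by role; points are libraries. Psma6 is highest in both assays, at 127 FPKM and 408 RPKM on average, and Psmb8 and Psmb9 are lowest.

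The order of the genes changed between RNA and footprints. *Psmb5*, the chymotrypsin-like subunit, was rank 2 by FPKM and rank 29 by RPKM, and the alpha subunit *Psma5* went from rank 7 to rank 23. In the other direction, the lid subunit *Psmd12* went from rank 31 to rank 12 and *Psmd6* from rank 22 to rank 5. The ratio of RPKM to FPKM, used here as a level of translation efficiency (TE), was 0.359 for *Psmb5* and 4.82 for *Psmd6* in the Ctrl, the ends of the range over the 46 genes. The 2 tables were normalized separately, so that this ratio orders genes but is not an absolute efficiency. For the 45 genes that could be checked the lengths used in both tables were in a constant ratio, so that a difference in the length divisor does not enter the order. Footprints come from the coding sequence and RNA fragments from the whole transcript, and the part of the coding share in the order was not tested.

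The median TE level of the 46 genes was above that of the transcriptome in all 3 genotypes. It was 1.84 in the Ctrl, 1.86 in the *F*-cKO and 1.67 in the *M*-cKO, where genes with a mean of at least 1 FPKM had medians of 0.757, 0.786 and 0.743. The 46 genes were not cut in this way, and *Psmb8* and *Psmb9* lay below 1 FPKM in the Ctrl. The *M*-cKO median with the cut is given in the last section. The 8 lid genes had a Ctrl median of 2.71, the 10 base genes 2.33, the 14 core genes 1.83 and the 5 activators and inhibitors 1.34. Within the catalytic trio the TE level was 0.359 for *Psmb5*, 1.44 for *Psmb6* and 2.04 for *Psmb7*. *Psmb5* was the lowest of the 46 in every genotype, at 0.397 in the *F*-cKO and 0.356 in the *M*-cKO, whereas the highest was *Psmd6* in the Ctrl and *Psmd12* in the *F*-cKO (3.94) and the *M*-cKO (3.45). These levels are a description without a test.

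Standard catalytic subunits far outweighed those of the immunoproteasome. In Ctrl RNA, *Psmb5* was at 119.9, 128.7 and 121.2 FPKM, *Psmb6* at 102.3, 108 and 104.0 FPKM and *Psmb7* at 31.7, 33.2 and 29.8 FPKM. Their immunoproteasome counterparts were at 0.391, 0.293 and 0.195 FPKM (*Psmb8*), at 0.0732, 0.103 and 0.117 FPKM (*Psmb9*) and at 8.53, 8.19 and 8.90 FPKM (*Psmb10*). *Psmb10*, the counterpart of *Psmb7*, thus made up most of the immunoproteasome signal. The summed FPKM of the 3 immunoproteasome genes was 3.18% to 3.61% of that of the 3 catalytic genes in the Ctrl, 2.18% to 2.76% in the *F*-cKO and 3.08% to 3.40% in the *M*-cKO. The *F*-cKO libraries did not overlap those of the Ctrl. In Ribo-seq the share was 2.39% to 3.41%, 1.56% to 3.00% and 2.09% to 3.53%, and the genotypes overlapped.

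The catalytic subunits themselves were not called in any comparison. *Psmb5* was at 123.2, 125.6 and 114.8 FPKM in the *F*-cKO and at 118.7, 114.5 and 134.5 FPKM in the *M*-cKO. *Psmb6* was at 98.9, 96.0 and 90.8 FPKM and at 90.5, 89.0 and 102.4 FPKM, and *Psmb7* at 33.5, 31.0 and 35.5 FPKM and at 29.97, 27.7 and 33.4 FPKM. Only *Psmb6* in the *F*-cKO lay apart from the Ctrl, with all 3 libraries below. *Psmb9* had 3 to 9 RNA counts per library, was removed by the filter on low counts and has no test. The other 45 genes passed that filter in every comparison.

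Between the *F*-cKO and the Ctrl, 6 of the 45 tested genes differed in RNA, where 21.1% of all genes did. Higher were the base scaffolds *Psmd1* and *Psmd2* and the activators *Psme3* and *Psme4*, 4 genes, where 11.5% of all 16944 genes tested were called higher. Lower were *Psmb10* and the maturation factor *Pomp*, 2 genes, where 9.57% of all genes were called lower. The median log2 fold change was −0.01 for the 45 genes and −0.01 for all genes. These shares were near or below those of all genes, and the core, the ATPases and the lid had no gene called.

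*Psmd1*, a scaffold of the base, was at 110.4, 103.1 and 103.6 CPM (counts scaled to library depth, with the trimmed mean of M-values, TMM) in Ctrl RNA and at 141.5, 126.6 and 133.6 CPM in the *F*-cKO. All *F*-cKO libraries were above all Ctrl libraries. The log2 fold change was 0.33 ± 0.06 (SE), a 1.26-fold difference, with an adjusted *P* of 0.00804 (edgeR quasi-likelihood test, Benjamini-Hochberg over all genes tested, as throughout). *Psme4*, a nuclear activator that caps the core, was at 113.9, 113.9 and 104.1 CPM in the Ctrl and at 126.3, 132.3 and 151.9 CPM in the *F*-cKO, again without overlap, with a log2 fold change of 0.29 ± 0.08 and an adjusted *P* of 0.0249 by edgeR. *Psmd2*, the second scaffold, and *Psme3*, the activator of the nucleus, rose by log2 fold changes of 0.24 ± 0.06 and 0.24 ± 0.07. *Psmd1* and *Psme4* each overlap another protein-coding gene, *Htr2b* and *Erlec1*, and whether the authors counted by strand is not given in the sources used here.

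*Psmb10*, the trypsin-like subunit of the immunoproteasome, was at 14.6, 14.1 and 15.4 CPM in the Ctrl and at 9.14, 10.3 and 11.2 CPM in the *F*-cKO. The groups did not overlap, and its log2 fold change of −0.54 ± 0.12 (adjusted *P* = 0.0126, edgeR) was the largest in size among the genes called. *Psmb8*, its partner in the same particle, had a log2 fold change of −0.62 and was not called, with 0.377 to 1.07 CPM in these libraries, and *Psmb9* was at 0.0401 to 0.0531 FPKM in the *F*-cKO and 0.0732 to 0.117 FPKM in the Ctrl. *Pomp*, which guides maturation of the beta rings, was at 136.7, 138.8 and 138.7 CPM in the Ctrl and 123.4, 115.5 and 119.6 CPM in the *F*-cKO, a log2 fold change of −0.22 ± 0.05 with an adjusted *P* of 0.0191 by edgeR. Its *F*-cKO libraries were all lower than the Ctrl. Without Ctrl replicate 3, *Psmb10* had an adjusted *P* of 0.0502 by edgeR and 1 gene was called higher and 0 lower. The counts called higher and lower were 1 and 1 without *F*-cKO replicate 2, 3 and 1 without Ctrl replicate 1, 2 and 1 without Ctrl replicate 2, and 2 and 2 without *F*-cKO replicate 1 or 3, and *Psmd1* was called each time.

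Other gene lists moved in the same libraries as *Psmb10*. Of 15 tested interferon response genes, 5 were lower and none higher in *F*-cKO RNA, among them *Ifi27* (log2 fold change −1.67), *Ifit3* (−1.85) and *Stat2* (−0.33), and the list summed to 51.4 to 55.2 FPKM in the Ctrl and 41.1 to 42.5 FPKM in the *F*-cKO. Of 9 meningeal markers 5 were lower (15.4 to 29.9 against 3.85 to 11.4 FPKM) and of 10 endothelial markers 3 were lower (60.5 to 65.9 against 46.1 to 51.8 FPKM). Of 11 microglial markers 0 were called, with sums of 39.4 to 49.4 and 31.3 to 40.5 FPKM. Of 10 cortical identity genes 5 were called higher and 0 lower, as were 5 of 10 ganglionic eminence markers, while 5 of 10 radial glia markers were higher and 3 lower. Of 12 excitatory neuron markers 5 were higher and 3 lower (2344 to 2528 against 2156 to 2351 FPKM), and of 9 erythroid markers 2 were higher and 1 lower (476 to 880 against 365 to 524 FPKM). No list had a marker of its 10 to 18 at 0 in all libraries of a group in RNA. The part of these lists in the difference of *Psmb10* was not tested.

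Between the *M*-cKO and the Ctrl, 10 of the 45 genes differed in RNA, most of them downwards, where 29.6% of all genes differed. The Ctrl libraries are those of the comparison above, so that the comparisons are not independent. Lower were 8 genes, namely the alpha subunits *Psma1*, *Psma2*, *Psma3*, *Psma6* and *Psma7*, the ATPase *Psmc6* and the lid subunits *Psmd6* and *Psmd14*, where 14.1% of all 16968 genes tested were called lower. Higher were 2 genes, the lid subunit *Psmd7* and the activator *Psme3*, where 15.5% of all genes were called higher. The median log2 fold change was −0.08 for the 45 genes and −0.01 for all genes, and 34 of the 45 were negative, against 51.2% of all genes. By role, 5 of 7 alpha subunits, 0 of 7 beta subunits, 1 of 10 base genes, 2 of 8 lid genes and 0 of 6 assembly factors were called lower. Of the 5 alpha subunits, *Psma3* alone stayed called without Ctrl replicate 1, *M*-cKO replicate 1 or *M*-cKO replicate 2. All differences were below 2-fold, with fold changes from 0.764 to 1.31.

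**Figure D2:**
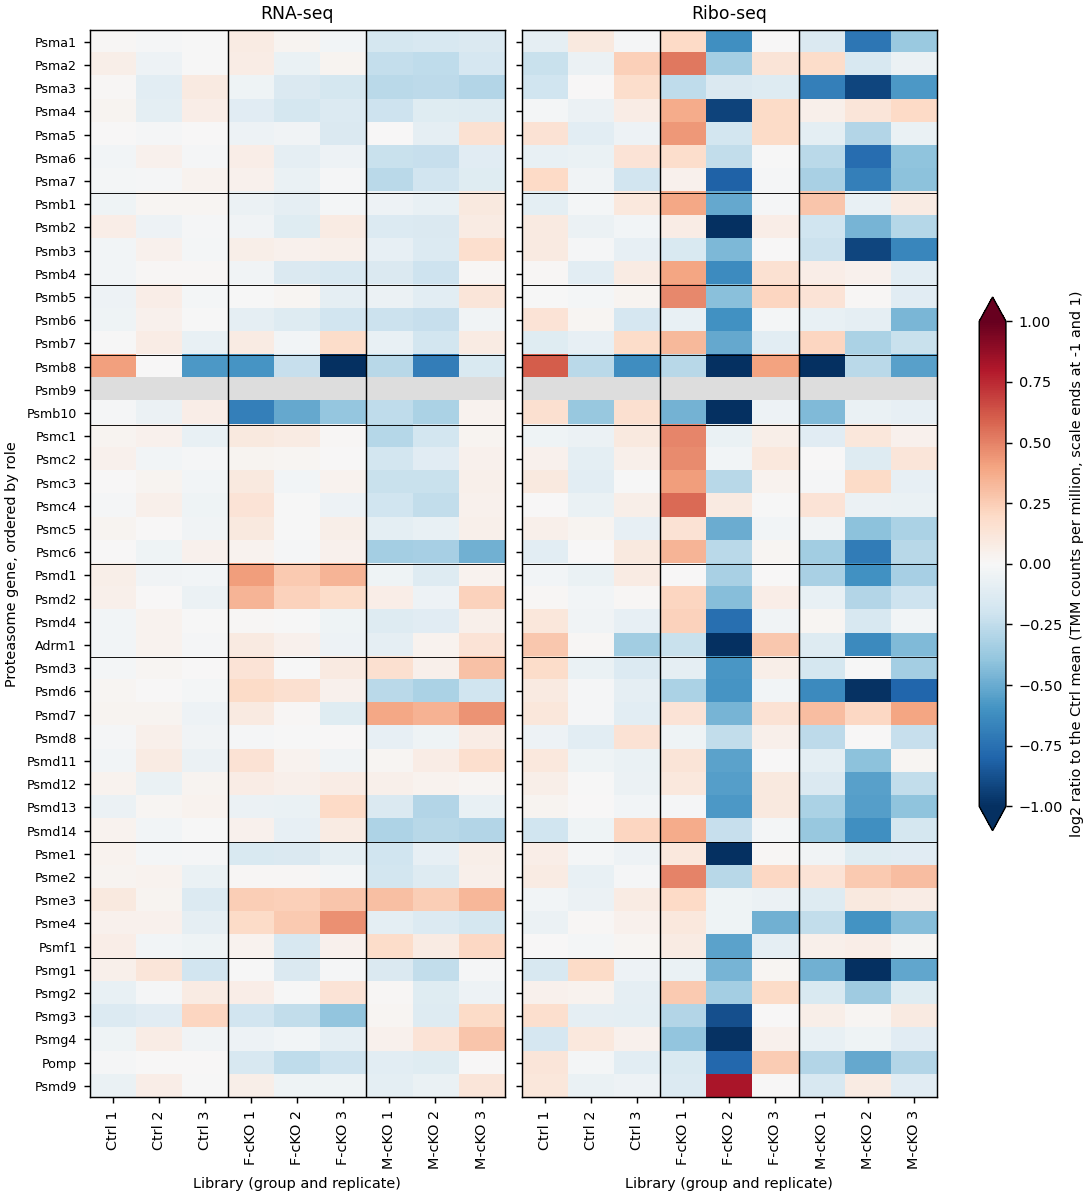
Log2 ratio of each gene's TMM-scaled CPM to the Ctrl mean, in the 9 RNA-seq and 9 Ribo-seq libraries, with genes in rows by role and Psmb9 grey where it has no value. The *M*-cKO columns are mostly negative in Ribo-seq, and the column of Ribo-seq *F*-cKO replicate 2 is negative for 43 of 45 genes.

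*Psmc6*, an ATPase of the base, was at 146.1, 141.5 and 149.9 CPM in Ctrl RNA and at 115.0, 116.1 and 104.7 CPM in the *M*-cKO. The groups were far apart, with a log2 fold change of −0.39 ± 0.06 and an adjusted *P* of 0.000888 by edgeR. *Psma3*, an alpha subunit, was at 134.2, 123.7 and 141.9 CPM in the Ctrl and at 110.7, 111.3 and 108.6 CPM in the *M*-cKO, with no overlap, a log2 fold change of −0.28 ± 0.06 and an adjusted *P* of 0.00671 by edgeR. Among the remaining alpha subunits called, the log2 fold changes were −0.17 ± 0.05 (*Psma1*), −0.23 ± 0.06 (*Psma2*), −0.19 ± 0.06 (*Psma6*) and −0.20 ± 0.06 (*Psma7*). All 5 had every *M*-cKO library below every Ctrl library.

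The lid moved in both directions. *Psmd14*, the enzyme that cleaves ubiquitin chains from the substrate, was at 126.8, 121.2 and 123.5 CPM in the Ctrl and at 100.1, 102.4 and 101.2 CPM in the *M*-cKO, a log2 fold change of −0.30 ± 0.06 with an adjusted *P* of 0.00230 by edgeR. *Psmd7*, which pairs with *Psmd14* in the lid, was at 148.3, 148.4 and 140.5 CPM in the Ctrl and at 190.5, 185.0 and 199.0 CPM in the *M*-cKO, a log2 fold change of 0.39 ± 0.06 with an adjusted *P* of 0.000702 by edgeR. The pair thus moved apart, without overlap for either gene. *Psmd6*, another lid subunit, had a log2 fold change of −0.27 ± 0.06. The activator *Psme3* was at 122.8, 117.1 and 104.1 CPM in the Ctrl and at 141.0, 136.3 and 144.1 CPM in the *M*-cKO, all above, with a log2 fold change of 0.28 ± 0.07 and an adjusted *P* of 0.0103 by edgeR.

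Replicates of the *M*-cKO differed in the size of the shift. The median log2 ratio of the 45 genes to the Ctrl mean was −0.129, −0.125 and 0.046 in *M*-cKO replicates 1, 2 and 3, and −0.012 to 0.016 in the Ctrl libraries. Replicate 3 thus lay above the Ctrl where the other two lay below. Without it, 14 genes were called lower. The count was 4 without Ctrl replicate 1, *M*-cKO replicate 1 or *M*-cKO replicate 2, 6 without Ctrl replicate 2 and 5 without Ctrl replicate 3. *Psmc6*, *Psma3*, *Psmd14*, *Psmd6*, *Psmd7* and *Psme3* were called in each of these fits, whereas *Psma1*, *Psma2*, *Psma6* and *Psma7* were lost in 3 to 5 of 6.

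Of the 45 genes, 11 (24.4%) had all 3 *M*-cKO libraries below all 3 Ctrl libraries in RNA, where 21.4% of all 17376 genes did, and 4 (8.89%) had all above, where 22.9% did. For the *F*-cKO the same counts were 8 below (17.8%, all genes 19.1%) and 6 above (13.3%, all genes 21.8%).

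**Figure D3:**
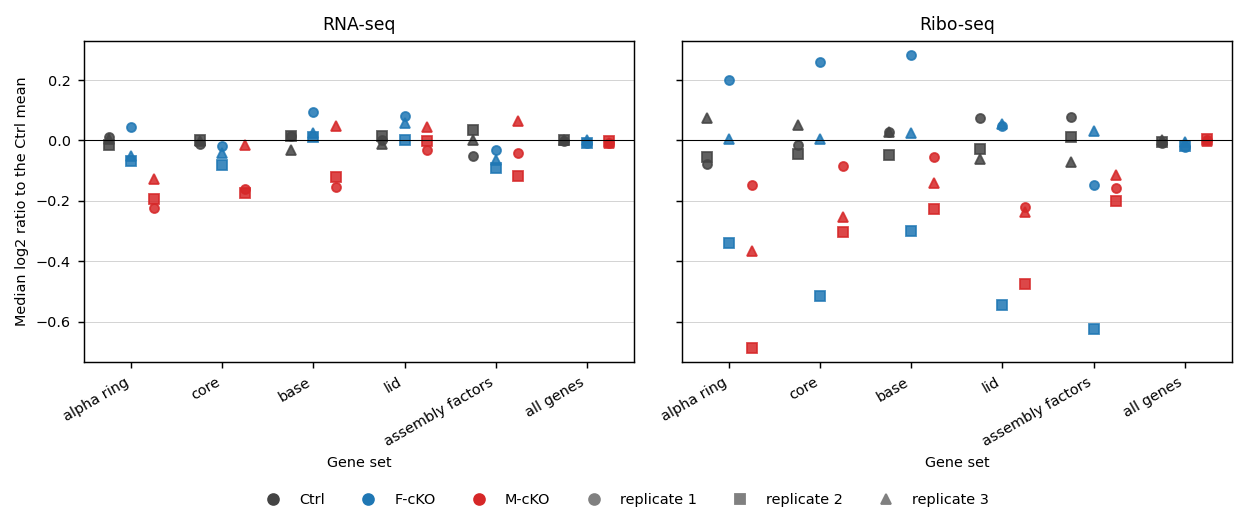
Median log2 ratio to the Ctrl mean for the alpha ring, the core, the base, the lid, the assembly factors and all genes, 1 point per library, for RNA-seq and Ribo-seq. The alpha ring medians of the *M*-cKO run from −0.225 to −0.128 in RNA-seq and from −0.687 to −0.147 in Ribo-seq, below those of the Ctrl, which run from −0.014 to 0.01 and from −0.078 to 0.073.

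In a direct comparison of both knockouts, which uses no Ctrl library, 8 of the 45 genes differed in RNA, where 27.4% of all genes did. Lower in the *M*-cKO were 7 genes (14.3% of all 16802 genes tested), and 1 gene was higher (13.1%). *Psmd1* was at 102.4, 96.9 and 108.5 CPM in the *M*-cKO, below the 126.6 to 141.5 CPM of the *F*-cKO, with a log2 difference of −0.39 ± 0.07 and an adjusted *P* of 0.00272 by edgeR. *Psme4* was at 103.2, 100.7 and 97.8 CPM in the *M*-cKO, below the 126.3 to 151.9 CPM of the *F*-cKO, with a log2 difference of −0.45 ± 0.08 and an adjusted *P* of 0.00220 by edgeR. These 2 genes had risen in the *F*-cKO and were not called in the *M*-cKO RNA against the Ctrl.

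*Psmc6* (−0.41 ± 0.06), *Psmd14* (−0.31 ± 0.06) and *Psmd7* (0.39 ± 0.07) differed between the knockouts by about as much as between *M*-cKO and Ctrl. *Psmd6* was at 130.8, 127.8 and 118.1 CPM in the *F*-cKO and 95.0, 92.0 and 99.5 CPM in the *M*-cKO, a log2 difference of −0.40 ± 0.06 with an adjusted *P* of 0.00177 by edgeR. *Psma2* was at 133.7, 121.9 and 129.5 CPM in the *F*-cKO and 107.7, 107.0 and 113.2 CPM in the *M*-cKO, a log2 difference of −0.24 ± 0.06 with an adjusted *P* of 0.0175 by edgeR. Both separated the groups fully, and *Psma1* differed by −0.20 ± 0.06. Without *M*-cKO replicate 3, 11 genes were called lower, and without any other single library 5 to 7. Of the 45 genes, 11 (24.4%) had all *M*-cKO libraries below all *F*-cKO libraries, where 21.6% of all genes did, and 6 (13.3%) above, where 21.3% did.

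**Figure D4:**
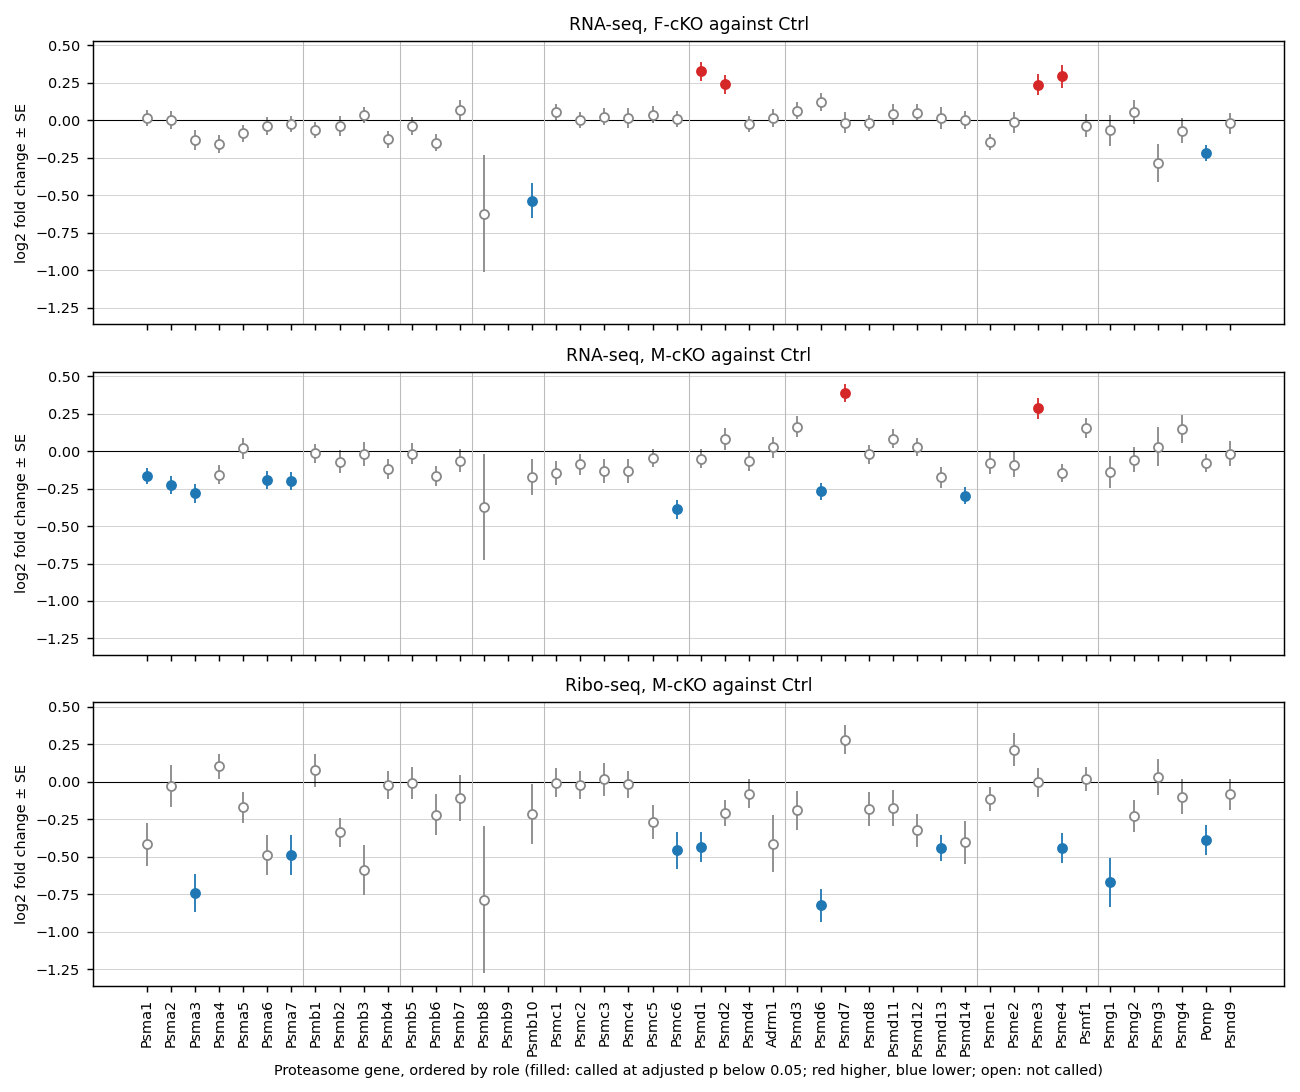
Log2 fold change ± SE of the 45 tested genes for *F*-cKO against Ctrl in RNA-seq and *M*-cKO against Ctrl in RNA-seq and Ribo-seq, filled where the adjusted *P* is below 0.05. In Ribo-seq of the *M*-cKO, 38 of the 45 genes lie below 0, with Psmd6 lowest at −0.82.

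Footprints of the *M*-cKO were lower than in the Ctrl for genes of the core, the base, the lid, an activator and the assembly factors. Called lower were 9 of the 45 genes, the alpha subunits *Psma3* and *Psma7*, the ATPase *Psmc6*, the scaffold *Psmd1*, the lid subunits *Psmd6* and *Psmd13*, the activator *Psme4* and the assembly factors *Psmg1* and *Pomp*, where 7.5% of all 14314 genes tested were called lower. None was called higher by edgeR, where 7.13% of all genes were, 1 had an unadjusted *P* below 0.05 in that direction, and DESeq2 called 1 higher and 14 lower. The median log2 fold change was −0.19 for the 45 genes and 0.00 for all genes, and 38 of 45 were negative, against 50.0% of all genes. By role the median was −0.42 for the alpha ring, −0.31 for the base scaffolds and receptors, −0.26 for the lid, −0.18 for the structural and −0.11 for the catalytic beta subunits, −0.16 for the assembly factors, −0.02 for the ATPases and 0.00 for the activators and inhibitor. The 2 tested immunoproteasome genes had a median of −0.50, and neither was called.

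*Psmd6*, a lid subunit, was at 478, 446 and 422 CPM in Ctrl footprints and at 289, 226 and 258 CPM in the *M*-cKO. No library overlapped, and the log2 fold change of −0.82 ± 0.11, a 0.565-fold level, had an adjusted *P* of 0.00854 by edgeR. *Psma3* was at 109, 125.1 and 140.7 CPM in the Ctrl and at 77.8, 65.9 and 83.6 CPM in the *M*-cKO, with a log2 fold change of −0.74 ± 0.13 and an adjusted *P* of 0.0151 by edgeR. All *M*-cKO libraries were again the lowest. The assembly factor *Psmg1*, which pairs with *Psmg2* to nucleate the alpha ring, was at 40.0, 50.9 and 43.0 CPM in the Ctrl and at 32.1, 22.2 and 31.1 CPM in the *M*-cKO, with a log2 fold change of −0.67 ± 0.16 and an adjusted *P* of 0.0349 by edgeR. Its RNA was at 25.8, 27.1 and 21.8 CPM in the Ctrl and 22.5, 21.1 and 24.8 CPM in the *M*-cKO, where the groups overlapped.

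*Psmd1* was at 281, 273 and 303 CPM in Ctrl footprints and at 229, 188 and 227 CPM in the *M*-cKO, with a log2 fold change of −0.44 ± 0.10 and an adjusted *P* of 0.0314 by edgeR. *Psme4* was at 130.3, 137.0 and 139.4 CPM and at 114.2, 89.5 and 101.0 CPM, with a log2 fold change of −0.44 ± 0.10 and an adjusted *P* of 0.0315 by edgeR. *Psmc6* was at 312, 337 and 359 CPM and at 264, 206 and 277 CPM, with a log2 fold change of −0.46 ± 0.12 and an adjusted *P* of 0.0458 by edgeR. In all 3 the groups did not overlap. The remaining genes called were *Psma7* (−0.49 ± 0.13), *Psmd13* (−0.44 ± 0.09) and *Pomp* (−0.39 ± 0.10). *Psmd7*, whose RNA had risen, was at 232, 212 and 198.5 CPM in Ctrl footprints and 266, 247 and 282 CPM in the *M*-cKO, all above, and was not called.

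**Figure D5:**
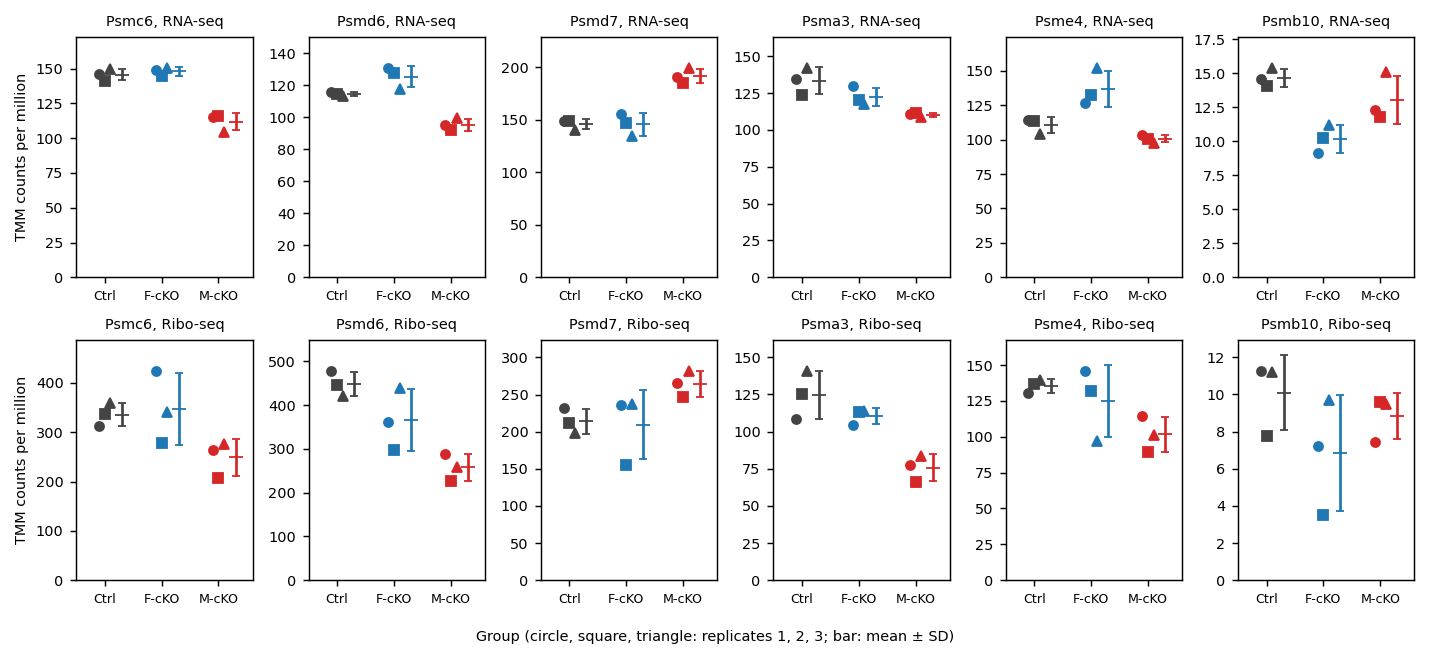
TMM-scaled CPM of Psmc6, Psmd6, Psmd7, Psma3, Psme4 and Psmb10 in every RNA-seq and Ribo-seq library, with points for libraries and bars for the mean ± SD. Psmd6 footprints are at 226 to 289 CPM in the *M*-cKO and 422 to 478 CPM in the Ctrl, and Psmd7 RNA is at 185 to 199 CPM against 140.5 to 148.4 CPM.

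Of the 45 genes, 16 (35.6%) had all 3 *M*-cKO footprint libraries below all Ctrl libraries, where 19.0% of all 14326 genes did, and 3 (6.67%) had all above, where 19.9% did. The median log2 ratio of the 45 genes was negative in every *M*-cKO library, at −0.126, −0.271 and −0.176, and within −0.038 to 0.039 in the Ctrl. The 8 genes lower in RNA all had a negative footprint value, and 4 of them, *Psma3*, *Psma7*, *Psmc6* and *Psmd6*, were called in both assays (50.0% of the 8 and 44.4% of the 9). Over all 13208 genes tested in both assays, 506 of the 2021 called lower in RNA and of the 1056 called lower in footprints (47.9%) were called in both, and 79.9% of those lower in RNA had a negative footprint value.

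The footprint calls rested on all libraries of the comparison. The number called lower was 2, 0 and 1 without Ctrl replicates 1, 2 and 3 and 5, 3 and 6 without *M*-cKO replicates 1, 2 and 3. *Psmd6* was lost only without Ctrl replicate 2 (adjusted *P* = 0.0518, edgeR) and *Psma3* without Ctrl replicate 2 or 3. When all 9 Ribo-seq libraries shared a single fit, which includes *F*-cKO replicate 2, 0 genes were called and *Psmd6* had an adjusted *P* of 0.0889 by edgeR.

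Other gene lists moved with these values in the *M*-cKO. Of 10 ganglionic eminence markers, genes of interneuron precursors, 10 were higher in RNA (92.5 to 94.3 FPKM in the Ctrl against 135 to 184 FPKM) and 6 in footprints (42.6 to 64.3 against 72.3 to 154 RPKM). The 10 radial glia markers, which mark the neural stem cells, summed to 779 to 868 FPKM in the Ctrl and 575 to 618 FPKM in the *M*-cKO, with 4 called higher and 3 lower. Of 12 excitatory neuron markers, 6 were called higher and 4 lower in RNA, with sums of 2344 to 2528 and 2386 to 2503 FPKM. Of 10 cortical identity genes 4 were higher and 1 lower in RNA. Erythroid markers had 2 of 9 called higher (476 to 880 against 490 to 731 FPKM), and 0 of 11 microglial, 0 of 10 endothelial and 0 of 10 meningeal markers were called in RNA. In footprints none of these 3 lists had a gene called, but 9 of 9 tested meningeal and 9 of 10 endothelial markers were negative, with median log2 fold changes of −0.58 and −0.54, and the microglial median was −0.03. The part of these lists in the proteasome values was not tested.

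Between the *F*-cKO and the Ctrl, footprints of 0 of 45 genes were called by edgeR, as for 0 of all 14335 genes (0.0%). No proteasome gene had an unadjusted *P* below 0.05, where 227 of all genes did with higher and 91 with lower values, and DESeq2 called 0 of the 45 and 5 genes higher and 1 lower overall. The smallest *P* values belonged to *Psmd6* (log2 fold change −0.29 ± 0.17), *Psmb10* (−0.55 ± 0.40) and *Psmc4* (0.24 ± 0.18). With a single library left out, they ranged from −0.40 to −0.16, from −0.86 to −0.24 and from 0.04 to 0.38, in that order. *Psmd6* was at 361, 298 and 439 CPM in the *F*-cKO, overlapping the Ctrl, and *Psmb10* at 7.25, 3.52 and 9.72 CPM where the Ctrl had 11.3, 7.75 and 11.2. For 0 genes did the groups separate, in either direction, where 4.21% of all genes were lower and 3.66% higher without overlap.

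One library stood apart in that comparison. The median log2 ratio of the 45 genes was −0.498 in *F*-cKO replicate 2, with 43 of 45 negative, and 0.125 and 0.019 in replicates 1 and 3. *Psmd9*, the chaperone of the base, went the other way, at 153 CPM in replicate 2 and 77.8 to 93.7 CPM in the other 8 libraries. Without replicate 2, 0 of the 45 genes were called as well, their median log2 fold change went from −0.09 to 0.07, and the biological coefficient of variation over all genes went from 0.379 to 0.204.

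Between the *M*-cKO and the *F*-cKO, 0 of 45 footprint values were called by edgeR, as for 0 of all 14262 genes (0.0%). The unadjusted *P* was below 0.05 for 2 genes, both lower, where 444 of all genes were lower and 710 higher, and DESeq2 called 0 of the 45 and 178 genes higher and 28 lower overall. *Psma3* (−0.55 ± 0.15), *Psmd6* (−0.51 ± 0.19) and *Psmc6* (−0.48 ± 0.21) had the smallest *P* values, and all 3 had every *M*-cKO library below every *F*-cKO library. In total 6 genes (13.3%) were so placed, where 6.86% of all genes were, and 2 (4.44%) the opposite way, where 9.18% were.

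Translation efficiency was tested as the change of footprints beyond the change of RNA, with an interaction term over both assays. In the *M*-cKO 1 gene, *Psmd6*, was called lower, with a log2 change of −0.49 ± 0.12 and an adjusted *P* of 0.0485 by edgeR, where 1.18% of all 13208 genes tested were called lower. None was called higher by edgeR, where 1.89% were, and DESeq2 called 1 higher and 1 lower. With higher values, 2 of the 45 genes had an unadjusted *P* below 0.05 by edgeR. With lower values, *Psma3*, *Psmb3*, *Psmd1*, *Psmd6*, *Psmd12* and *Psmg1* did. Over all genes, 1624 had such a *P* with higher and 1217 with lower values, and 3.07% of all genes were called in either direction by edgeR. The footprint and RNA changes of *Psmd6* are given above, −0.82 and −0.27 on the log2 scale. All 8 lid genes were negative, where 47.7% of all genes were, with a median of −0.19, and all but *Psmd14* were negative in the *F*-cKO as well. Of the 6 base ATPases 5 were positive, with a median of 0.16, and none was called. The median of the 45 genes was −0.10 against 0.02 for all genes. Among other large complexes, taken for comparison, 8 of 9 COP9 signalosome genes (median −0.27), 11 of 13 eIF3 genes (−0.24) and 7 of 8 CCT chaperonin genes (−0.19) were negative as well. Of these genes *Cops5* was called lower (−0.46) and *Eif3a* higher (0.42). The call of *Psmd6* was lost without any 1 of the 6 RNA-seq libraries and without Ribo-seq Ctrl replicate 1 or 2 or *M*-cKO replicate 2, with adjusted *P* values of 0.0682 to 0.12 by edgeR.

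In the *F*-cKO 0 of 45 genes were called for translation efficiency by edgeR, as for 0 of all 13225 (0.0%), with 3 genes at an unadjusted *P* below 0.05, all lower, where 817 of all genes were lower and 411 higher, and 0 of the 45 called by DESeq2. They were *Psmd1* (−0.46 ± 0.13), *Psme4* (−0.45 ± 0.18) and *Psmd6* (−0.45 ± 0.18). With a single library left out, they ranged from −0.54 to −0.32, from −0.62 to −0.32 and from −0.62 to −0.28, in that order. *Psmd1* and *Psme4* are the genes with the largest rise in *F*-cKO RNA. Their footprints were at 285, 229 and 286 CPM (*Psmd1*) and 145.8, 131.6 and 97.3 CPM (*Psme4*) in the *F*-cKO and overlapped the Ctrl. Every lid gene but *Psmd14* (0.02) was negative for *F*-cKO translation efficiency, where 51.1% of all genes were. So were 8 of 9 COP9 signalosome, 12 of 13 eIF3 and 8 of 8 CCT chaperonin genes. Between *M*-cKO and *F*-cKO 0 of 45 were called by edgeR (0.0% of all 13162 genes), with 1 gene at an unadjusted *P* below 0.05, lower, where 220 of all genes were lower and 321 higher, and 0 of the 45 by DESeq2. The smallest *P* values were those of *Psma3* (−0.34 ± 0.14), *Psma5* (−0.37 ± 0.21) and *Psmg1* (−0.37 ± 0.24). With a single library left out, they ranged from −0.42 to −0.26, from −0.52 to −0.21 and from −0.50 to −0.23, in that order. The lid genes ran from −0.13 (*Psmd12*) to −0.01 (*Psmd7*) between the knockouts.

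Related complexes and regulators of the pathway are given for comparison. The COP9 signalosome and the translation initiation factor eIF3 are built on the same subunit plan as the lid, and the CCT chaperonin is a ring complex that folds proteins. In *M*-cKO footprints their medians were −0.29 (3 of 9 lower), −0.26 (4 of 13 lower) and −0.33 (3 of 8 lower), with none called higher, and the most significant included *Cops5* (−0.72), *Eif3m* (−0.67) and *Cct4* (−0.72). The proteasome median of −0.19 was the smallest of the 4 in size. In *M*-cKO RNA the counts were 2 of 9 lower and 1 higher, 3 of 13 lower and 3 of 8 lower. In *F*-cKO RNA 0 of 9, 2 of 13 (both higher, with *Eif3a* at 0.25) and 1 of 8 (*Tcp1*, 0.19) were called.

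Of 7 regulators of proteasome genes, 2 rose in *M*-cKO RNA and none fell. *Nfe2l2*, a transcription factor of the stress response, had a log2 fold change of 0.83 in RNA and 0.75 in footprints, and *Nfe2l1*, the factor that restores proteasome synthesis, 0.29 in RNA. *Ngly1*, the enzyme that deglycosylates *Nfe2l1* during its activation, was lower in footprints (−0.50). In *F*-cKO RNA, *Ddi2*, the protease that cleaves *Nfe2l1*, was higher (0.31) and *Mafg*, a small Maf partner, lower (−0.24).

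Some further proteasome-associated genes and genes of the ubiquitin supply were called. Of 13 tested associated genes, 4 were lower and 0 higher in *M*-cKO footprints, where 7.5% and 7.13% of all genes were. Among the 4 were *Zfand5* (−1.04), an activator of the proteasome, *Txnl1* (−0.64), a thioredoxin bound to it, and *Usp14* (−0.45), its deubiquitinase. *Zfand5* was also the 1 gene of the 13 called for *M*-cKO translation efficiency (−0.75). In *M*-cKO RNA 2 of the 13 were higher and 3 lower, where 15.5% and 14.1% of all genes were. In *F*-cKO RNA 1 was higher (*Ipo9*, 0.19), where 11.5% of all genes were. Of 16 genes that supply or deliver ubiquitin, 2 were lower in *M*-cKO footprints, *Rps27a* (−0.61), a ubiquitin fusion gene, and *Uba1* (−0.50), the main activating enzyme. In *F*-cKO RNA 2 were higher, *Uba6* (0.41), the alternative activating enzyme, and *Vcp* (0.28), the segregase that feeds the proteasome, and in *M*-cKO RNA 1 was higher.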

How the data were processed

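RNA-seq and Ribo-seq were analysed in 18 libraries of embryonic day 15.5 cortex, 3 per genotype and assay. The authors aligned RNA-seq reads with HISAT2 2.0.5 and Ribo-seq reads with TopHat2 to mm10, and counted Ribo-seq reads per gene with HTSeq. The RNA-seq counting tool and both annotations are not given in the sources used here. Deposited were counts per gene, RNA-seq FPKM and Ribo-seq RPKM made by the authors, and here the counts were used for tests and FPKM and RPKM for levels. Ribo-seq counts are blank for 40490 genes in 8 libraries, and the 14348 genes with a value in all libraries were used.

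Counts of all genes were filtered (edgeR 4.0.16, R 4.3.3, filterByExpr, minimum count 10, total 15), TMM-scaled and tested genotype by genotype by quasi-likelihood. *P* values were adjusted over all genes, with calls below 0.05. Translation efficiency was the assay by genotype interaction, each assay filtered and scaled on its own. Gene names were RefSeq's for 54723 of 55153 identifiers. The code was tested on simulated data. Alternatives were DESeq2 1.42.0, RLE scaling, no filter, a replicate block, joint fits and leaving out libraries.

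The genes, roles, 15 comparison lists and tests were chosen with earlier results of these data known. Values by library are given for the catalytic and immunoproteasome subunits and, per comparison and role, for the gene called with the smallest *P* in each direction, or for the 3 smallest *P* where none was called, and up to 3 genes named per list. Correlations of same-numbered libraries were −0.18 to 0.20 in RNA-seq and −0.32 to 0.17 in Ribo-seq. Between assays they were 0.13 to 0.29 in the Ctrl, 0.08 to 0.29 in the *M*-cKO and −0.31 to −0.02 in the *F*-cKO. Not every pair exceeded 0.1, so that the main fits did not pair libraries. These values cannot show whether the numbers stand for shared animals or litters. With the block that joins both assays, *Psmd6* stayed called for *M*-cKO translation efficiency (adjusted *P* = 0.0488, edgeR). No 2 replicates of the same genotype and assay agreed within counting noise, and pairs across genotypes were not compared.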

Additional observations from a re-analysis of the deposited data

Results flagged for a closer look

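In RNA-seq, 8 proteasome genes had an effect that differed between the knockouts by the direct edgeR test of *M*-cKO against *F*-cKO, which is why they are listed. As log2 differences of the *M*-cKO effect minus the *F*-cKO effect, these were −0.45 for *Psme4*, −0.41 for *Psmc6*, −0.40 for *Psmd6*, −0.39 for *Psmd1*, −0.31 for *Psmd14*, −0.24 for *Psma2*, −0.20 for *Psma1* and 0.39 for *Psmd7*. For *Psmd1* the *F*-cKO libraries were above the Ctrl, and for *Psmc6*, *Psmd14*, *Psmd7*, *Psma1* and *Psma2* the *M*-cKO libraries lay apart from it. *Psmd6* and *Psme4* RNA was above the Ctrl in every *F*-cKO library and below it in every *M*-cKO library, although the *F*-cKO difference of *Psmd6* and the *M*-cKO difference of *Psme4* were not called. The calls of *Psma1* and *Psma2* were lost when some single libraries were left out. Groups of 3 libraries were not tested for outlying samples.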

How the results depend on the processing

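None of the proteasome genes refitted one by one, those called or among the smallest *P* values, reversed its sign under the alternatives run. Genes of the other lists were not followed in this way. Counts of proteasome genes called moved by over 1.5 times in these cases. With the replicate number as a block, *F*-cKO RNA had 2 higher and 1 lower and *M*-cKO footprints had 5 lower. Without the filter on low counts, *M*-cKO RNA had 5 lower and *M*-cKO translation efficiency 0 lower. With all libraries in a single fit, *M*-cKO against *F*-cKO RNA had 2 higher, *M*-cKO footprints 0 lower and translation efficiency 0 lower. DESeq2 called 1 higher and 14 lower in *M*-cKO footprints and 1 higher for translation efficiency. A filter over both assays together, added after the data were seen, left 0 lower for translation efficiency. The remaining 96 counts stayed within 1.5 times. The block moved no other count that far. Whether the numbers pair the libraries is not known, so that what its losses mean cannot be told.

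With each library left out in turn, counts ranged from 1 to 3 higher and 0 to 2 lower (*F*-cKO RNA), 2 to 3 and 4 to 14 (*M*-cKO RNA), 1 and 5 to 11 (*M*-cKO against *F*-cKO RNA), 0 and 0 to 6 (*M*-cKO footprints) and 0 and 0 to 2 (*M*-cKO translation efficiency), and were 0 in the other comparisons. The *M*-cKO median TE level of the proteasome genes was 1.75 over those with at least 1 FPKM, against 1.67 over all 46. Over all genes, higher and lower calls changed in *F*-cKO RNA from 1955 and 1621 to 1275 and 855 with the block. In *M*-cKO footprints they changed from 1020 and 1073 to 1617 and 1512 with DESeq2, 681 and 638 with the block and 29 and 6 with all libraries. For *M*-cKO translation efficiency they changed from 249 and 156 to 527 and 510 with DESeq2 and 8 and 3 with all libraries. Depth limits *Psmb8* and *Psmb9*, with few counts. Ribo-seq depth spanned 3.27-fold, and its part in the *F*-cKO footprint result was not tested.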
